A study of Mus musculus with 3 samples.

Results

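Collagen genes were followed through ATAC-seq peak summits of mouse mesenchymal stem cells (MSC), collected for work on heterotopic ossification, in which bone forms in soft tissue. A summit was given to a collagen gene if it lay inside the gene or if the nearest end of a protein-coding gene, within 50 kb, was that gene's. The members were 39 collagen genes of 20665 protein-coding genes on chromosomes 1 to 19, and 338 of 67237 open regions were theirs. ATAC-seq marks open chromatin by the sites at which a transposase inserts sequencing adapters. The 3 libraries were labelled MSC immobilized at day 7 after injury, MSC non-immobilized at day 7 after injury, and MSC pre-injury at day 0. Strain, genotype, age, the kind of injury, the way of immobilizing and the isolation of the cells were not given in the sources used here. Each group had 1 library, so nothing below was tested against the spread between replicates and there are no p-values. Shares carry exact Clopper-Pearson 95% intervals, which cover counting error only.

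Collagens are proteins of the extracellular matrix in which chains wind into a triple helix. Fibrillar collagens, of which types I, III and V are the main ones in bone, tendon and dermis, build the tensile fibrils of connective tissue. Type IV collagen forms the network of basement membranes, the sheets under epithelia and around vessels and muscle fibres, where the multiplexins Col15a1 and Col18a1 are also found. Type VI forms beaded filaments close to cells, and fibril-associated collagens attach to the surface of fibrils.

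The libraries held 143818952 read pairs in immobilized cells, 173029378 in non-immobilized cells and 176119937 at day 0, of which 43.4%, 42.0% and 60.2%, in that order, were duplicates. Aligned pairs without duplicates were estimated at 75269683 in immobilized cells, 90136518 in non-immobilized cells and 63640194 at day 0. The authors' lists held 67404 summits in immobilized cells, 47912 in non-immobilized cells and 51722 at day 0, so each list was reduced to its 47912 best-scoring summits. A region is a set of overlapping 500 bp windows around summits of the 3 libraries, and it is called in a library that has a summit in it. A summit's rank is its place in its library's list by score, as a percent of the list, with 0% the best. A region missing from a list had no summit there that scored well enough, which is not the same as closed chromatin. Markers of mesenchymal cells and fibroblasts were open in every library: 13 of 14 genes had a region in each, Pi16 having none in immobilized cells or at day 0 and Lum none in non-immobilized cells. Leukocyte markers were scarce, with 8 regions at 3 of 6 genes in immobilized cells, 10 at 4 in non-immobilized cells and 8 at 4 at day 0, and Itgam and Cd3e had none in any library. Markers of other cell types differed between the libraries and are given beside the results they move with. In bulk cells, a change in the mix of cells and a change in chromatin within a cell cannot be told apart.

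RefSeq promoter sequence, 250 bases before to 50 after a start site in GRCm38.p6, matched 31 of the 39 genes. The genes Col1a1, Col4a3, Col5a2, Col9a3, Col12a1, Col14a1, Col22a1 and Col26a1 had none. The 6 promoters shown belong to genes that the results return to. Col1a2 (chr6:4505368-4505667, + strand) had its summit at the promoter in every library, and Col3a1 (chr1:45311288-45311587, + strand) did not. Col4a1 (chr8:11312777-11313076, - strand) and Col4a2 (chr8:11312555-11312854, + strand) are read away from each other from overlapping promoters. Col6a1 (chr10:76725995-76726294, - strand) had a better rank at day 0, and Col19a1 (chr1:24587388-24587687, - strand) had no promoter summit in non-immobilized cells. Capitals mark matches on either strand: CCAAT, known to be bound by NF-Y, GGGCGG, known to be bound by Sp1, the TATA box letters TATAAA, and TGANTCA, known to be bound by AP-1.
Col1a2: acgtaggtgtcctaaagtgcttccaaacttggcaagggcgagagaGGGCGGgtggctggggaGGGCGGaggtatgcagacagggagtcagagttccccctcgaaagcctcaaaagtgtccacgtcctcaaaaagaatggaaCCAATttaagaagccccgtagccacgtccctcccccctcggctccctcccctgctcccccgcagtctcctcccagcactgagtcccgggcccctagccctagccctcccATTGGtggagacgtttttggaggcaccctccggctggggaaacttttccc
Col3a1: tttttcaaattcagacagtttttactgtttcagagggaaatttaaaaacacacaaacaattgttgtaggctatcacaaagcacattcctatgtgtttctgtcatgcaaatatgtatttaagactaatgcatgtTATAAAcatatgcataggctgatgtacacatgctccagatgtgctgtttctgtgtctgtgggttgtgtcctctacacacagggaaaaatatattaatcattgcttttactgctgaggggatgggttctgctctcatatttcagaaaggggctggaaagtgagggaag
Col4a1: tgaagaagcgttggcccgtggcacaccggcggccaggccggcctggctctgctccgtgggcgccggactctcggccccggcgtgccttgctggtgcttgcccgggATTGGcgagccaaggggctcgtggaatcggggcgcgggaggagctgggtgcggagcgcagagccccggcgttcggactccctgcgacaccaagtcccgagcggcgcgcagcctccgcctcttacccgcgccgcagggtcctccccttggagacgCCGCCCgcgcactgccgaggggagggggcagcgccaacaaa
Col4a2: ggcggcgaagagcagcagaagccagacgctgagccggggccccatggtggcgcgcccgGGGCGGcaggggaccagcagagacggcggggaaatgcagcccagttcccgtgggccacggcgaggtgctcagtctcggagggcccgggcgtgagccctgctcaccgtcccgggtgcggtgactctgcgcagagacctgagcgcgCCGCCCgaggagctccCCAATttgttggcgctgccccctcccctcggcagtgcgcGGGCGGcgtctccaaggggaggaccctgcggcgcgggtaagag
Col6a1: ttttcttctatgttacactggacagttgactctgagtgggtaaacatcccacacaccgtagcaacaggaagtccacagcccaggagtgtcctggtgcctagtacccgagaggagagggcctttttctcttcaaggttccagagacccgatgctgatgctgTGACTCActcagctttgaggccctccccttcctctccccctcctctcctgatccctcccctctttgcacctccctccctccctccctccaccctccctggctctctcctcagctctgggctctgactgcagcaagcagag
Col19a1: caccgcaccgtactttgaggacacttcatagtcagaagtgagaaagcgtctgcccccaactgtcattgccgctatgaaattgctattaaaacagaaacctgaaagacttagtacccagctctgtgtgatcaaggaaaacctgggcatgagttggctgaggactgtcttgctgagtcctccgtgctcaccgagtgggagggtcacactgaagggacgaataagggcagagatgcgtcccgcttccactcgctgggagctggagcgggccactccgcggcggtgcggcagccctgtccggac

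The Col1a2 promoter held CCAAT at -109 and, on the other strand, at +1, and GGGCGG at -205 and -188 from the start. Col3a1 held TATAAA at -117 as its only match. The Col4a2 promoter held CCAAT at -32 and GGGCGG at -192, -48 and +8, and the Col4a1 promoter held CCAAT at -145 and GGGCGG at +10, each counted from its own start. TGANTCA was found in 1 collagen promoter, that of Col6a1, at -90. Of 34 collagen promoters, 58.8% held GGGCGG, against 35.7% of all 32851 promoters in the table. CCAAT was in 29.4% of collagen promoters and 37.4% of all, TATAAA in 11.8% and 13.6%, and TGANTCA in 2.94% and 7.81%. A match is a description of the letters, not of a bound site.

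Of the 39 collagen genes, 35 (89.7%) had at least 1 region, against 75.7% of all protein-coding genes. The 4 with none were Col9a1 and Col9a3, chains of cartilage type IX, Col10a1, the collagen of hypertrophic cartilage, and Col20a1. Collagen genes are long, with a median of 114 kb against 17.5 kb for all genes, and their median number of regions was 8 against 2. The regions called numbered 216 in immobilized cells, 238 in non-immobilized cells and 248 at day 0. All 3 libraries shared 146 of the 338 regions (43.2%, 95% interval 37.8% to 48.7%), close to the 46.5% of all regions given to genes. A further 25 were called in immobilized cells alone, 36 in non-immobilized cells alone, 59 at day 0 alone and 29 in both day 7 libraries but not at day 0. The median best rank was 34.7% for regions of all 3 libraries, 58.7% for regions of 2 and 76.4% for regions of 1. This best rank is the best of 3 values in the first set and a single value in the last, which by itself favours that order. It was not set against the regions of all genes, so it is not a trait of collagen regions. Of the regions whose gene had a RefSeq start, 18.7% of those in all 3 libraries lay within 1 kb of it, and 5.0% of those in 1 library.

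**Figure D1:**
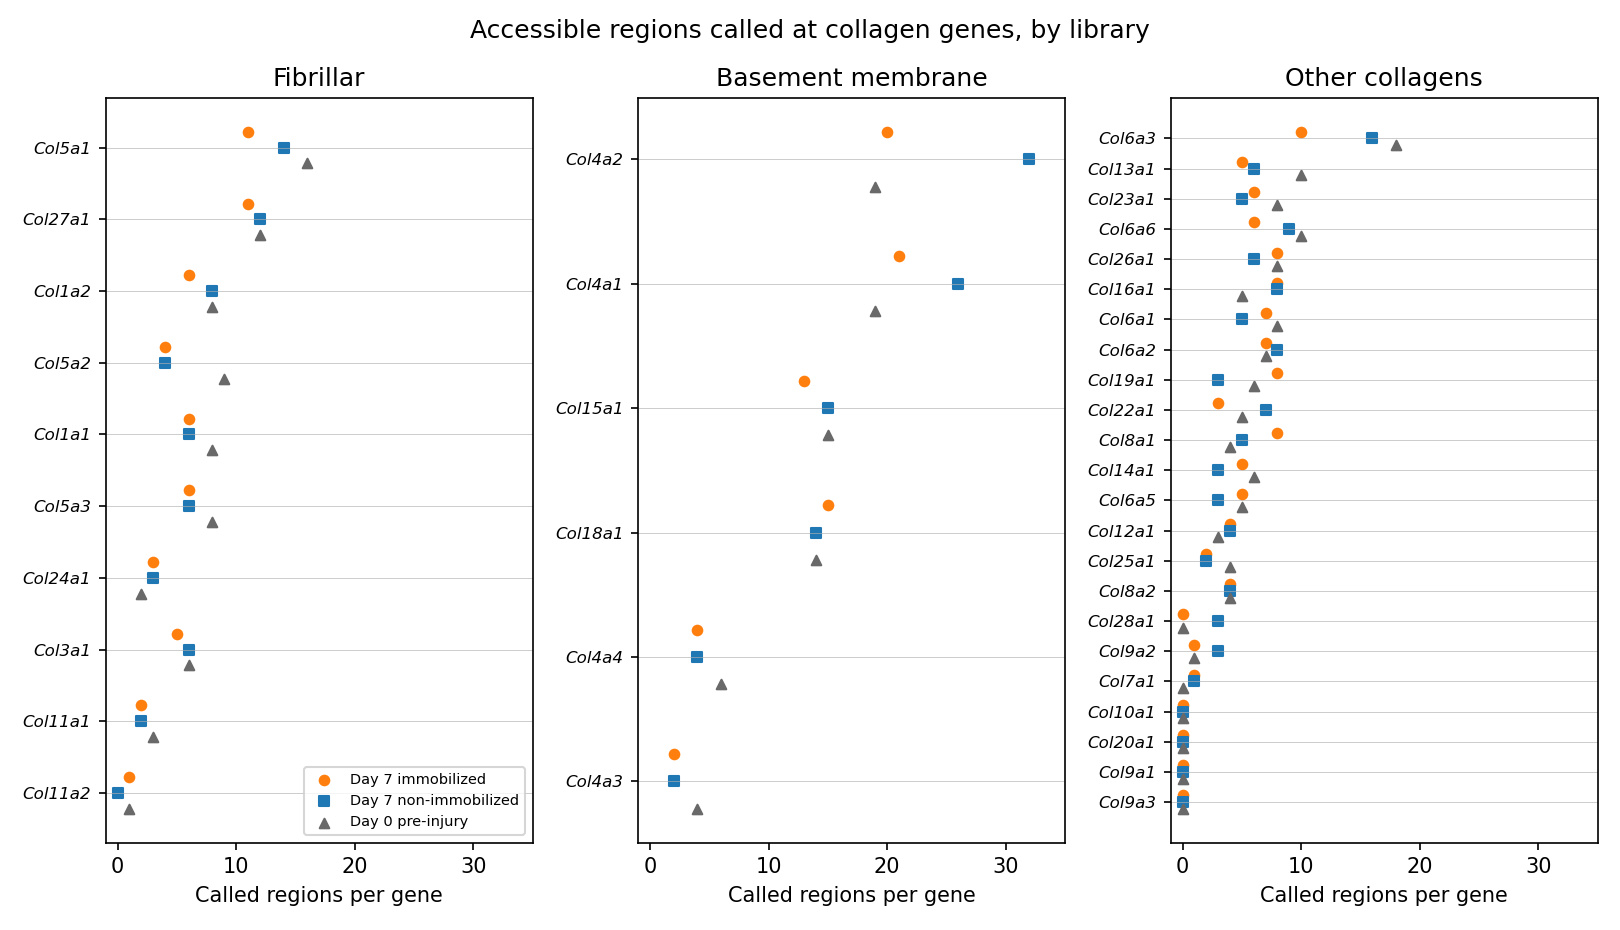
Number of open regions of each collagen gene (horizontal axis) in day 7 immobilized, day 7 non-immobilized and day 0 libraries, by class, from equal-length lists with 1 library per group. Col4a2 reaches 32 regions in non-immobilized cells, against 20 in immobilized cells and 19 at day 0, some of them shared with Col4a1. Of the fibrillar genes, 8 of 10 have fewer regions in immobilized cells than at day 0.

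The fibrillar collagens had 55 regions in immobilized cells, 61 in non-immobilized cells and 73 at day 0, of 90 in all. Of the 10 genes, 8 had fewer regions in immobilized cells than at day 0 and 1 had more. In non-immobilized cells 6 had fewer than at day 0 and 1 had more. Of the 6898 genes of any kind with at least 3 regions in the pair, 2706 had more in immobilized cells and 2492 more at day 0, and of 6714 such genes 2610 had more in non-immobilized cells and 2555 more at day 0. The regions of all genes numbered 41838 in immobilized cells, 41284 in non-immobilized cells and 40889 at day 0. Type I collagen, the main protein of bone matrix, is made of the chains of Col1a1 (chr11:94936224-94953042) and Col1a2 (chr6:4505618-4541543). Col1a1 had 6 regions in immobilized cells, 6 in non-immobilized cells and 8 at day 0. Its best region lay outside the gene, 7.31 kb from the end with the lower coordinate, with ranks of 12.5%, 11.8% and 10.4% in immobilized cells, non-immobilized cells and at day 0. The 3 libraries thus ranked it much alike. A region 40 bp inside the same end ranked at 45.9% in immobilized cells, 30.8% in non-immobilized cells and 21.6% at day 0, a wider spread. Col1a2 had 6, 8 and 8 regions in the same order, and its start summit, 85 to 99 bp upstream, was close in rank in the 3 libraries, at 20.7%, 20.8% and 18.2%.

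Col3a1 (chr1:45311538-45349706), the type III chain of young and extensible tissue, had 5 regions in immobilized cells, 6 in non-immobilized cells and 6 at day 0. Its start summit was not in the equal-length list of immobilized cells, though it was in the deposited list. That summit ranked at 79.1% in non-immobilized cells, 169 bp after the start, and at 38.9% at day 0, 69 bp after it. The 5 Col3a1 regions shared by immobilized cells and day 0 all ranked better at day 0, as did all 6 shared by non-immobilized cells and day 0. The neighbouring gene Col5a2 (chr1:45374331-45503282), a chain of the type V collagen that starts fibrils, had 4 regions in immobilized cells, 4 in non-immobilized cells and 9 at day 0. Of its 9 day 0 regions, 5 were called at day 0 alone, and 2 of these 5 had a summit in the deposited list of immobilized cells. A Col5a2 region 57.8 kb from the nearer gene end ranked at 96.4% in immobilized cells, 50.9% in non-immobilized cells and 38.2% at day 0. Day 0 held the most regions of the gene. It also held the better rank in the regions it shared, 4 of 4 with immobilized cells and 3 of 3 with non-immobilized cells. Another Col5a2 region was called in non-immobilized cells alone, at 77.1%. The region 225 bp inside the upper end was close in the 3 libraries, at 30.5%, 31.2% and 26.3%.

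Col5a1 (chr2:27886381-28039510), the other main type V chain, had 11 regions in immobilized cells, 14 in non-immobilized cells and 16 at day 0. Its start summit stood among the better collagen starts, at 16.0%, 15.2% and 16.9%, and a region 27.7 kb before the start ranked at 14.0%, 14.0% and 13.0%. The regions that differed were weaker ones: the 7 called at day 0 and not in immobilized cells had a median rank of 72.6%. Col5a3 had 6, 6 and 8 regions, with a region 9.09 kb beyond the gene's end at 10.3%, 8.87% and 6.21%. Col27a1 had 11, 12 and 12 regions, and the cartilage chains Col11a1 and Col11a2 had 2, 2 and 3 and 1, 0 and 1. Col24a1 was the fibrillar gene with fewer regions at day 0 than in either day 7 library, with 3, 3 and 2. Summed over their genes, 2 marker lists had the same order as the fibrillar genes. Smooth muscle and pericyte markers had 32 regions in immobilized cells, 34 in non-immobilized cells and 43 at day 0, with all 8 genes open in each library. Mesenchymal markers had 56, 62 and 65. Many markers did not follow their list. Of the first, Cspg4 had 9, 8 and 7 regions, Acta2 4, 2 and 4 and Mcam 3, 3 and 2. Of the second, Cd44 had 13, 11 and 7, Thy1 5, 2 and 3, Eng 8, 10 and 8 and Nt5e 2, 3 and 1. Ly6a with 3, 1 and 3, Pi16 with 0, 1 and 0 and Lum with 1, 0 and 1 also departed from the second list. The remaining genes of both lists kept the order, some with ties. Skeletal muscle markers had 20, 19 and 29 regions, with all 5 genes open in each library. The part of these cells in the fibrillar result was not tested.

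The basement membrane collagens had 63 regions in immobilized cells, 76 in non-immobilized cells and 63 at day 0, of 98. Most of the excess in non-immobilized cells lay at 1 locus, that of Col4a1 (chr8:11198423-11312889) and Col4a2 (chr8:11312805-11449287), the chains of the type IV network found in nearly every basement membrane. The locus had 31 regions in immobilized cells, 43 in non-immobilized cells and 28 at day 0, of 47. The pair share their start region and others, since a region inside 1 gene can lie nearest to the end of the other. Regions are therefore counted here once per locus. None was called in immobilized cells alone, 11 in non-immobilized cells alone and 4 at day 0 alone, and 8 were called in both day 7 libraries but not at day 0. Every region of the locus in the immobilized list was thus also in the non-immobilized list. Of the 12 regions in non-immobilized and not immobilized cells, 5 had a summit in the longer deposited list of immobilized cells and 7 had none. By the rule, Col4a2 had 20 regions in immobilized cells, 32 in non-immobilized cells and 19 at day 0. Of its 36 regions, 10 lay outside the gene, most of them inside Col4a1.

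The start shared by Col4a1 and Col4a2 was not among the regions that differed, with ranks of 25.3% in immobilized cells, 19.0% in non-immobilized cells and 20.8% at day 0. The 12 regions missing from immobilized cells had a median rank of 72.9% in non-immobilized cells and so were weak ones. Of the 31 regions that both day 7 libraries held, 23 ranked better in non-immobilized cells. Of the 23 regions shared by immobilized cells and day 0, 20 ranked better at day 0. Of the 24 shared by non-immobilized cells and day 0, 15 ranked better at day 0 and 9 in non-immobilized cells. The excess of non-immobilized cells over day 0 was thus one of region numbers and not of the ranks of shared regions. Summed over their genes, markers of endothelial cells, which lie on a type IV collagen sheet, had the same order in number of regions as this locus. They had 46 regions in immobilized cells, 86 in non-immobilized cells and 36 at day 0. Egfl7 differed, with 4, 8 and 7 regions. Cdh5 had 4, 10 and 4, Tek 5, 6 and 5, Erg 9, 18 and 9, Kdr 4, 4 and 2 and Tie1 2, 2 and 1, each with a tie. The remaining genes of the 11 had the order of the sum. All 11 endothelial markers had a region in each day 7 library and 9 had one at day 0, where Robo4 and Sox18 had none. Keratinocyte markers had 53, 15 and 12, with Krt5, Krt14, Krt15 and Dsg3 at 0 in non-immobilized cells and at day 0. The part of these cell types in the collagen results was not tested.

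**Figure D2:**
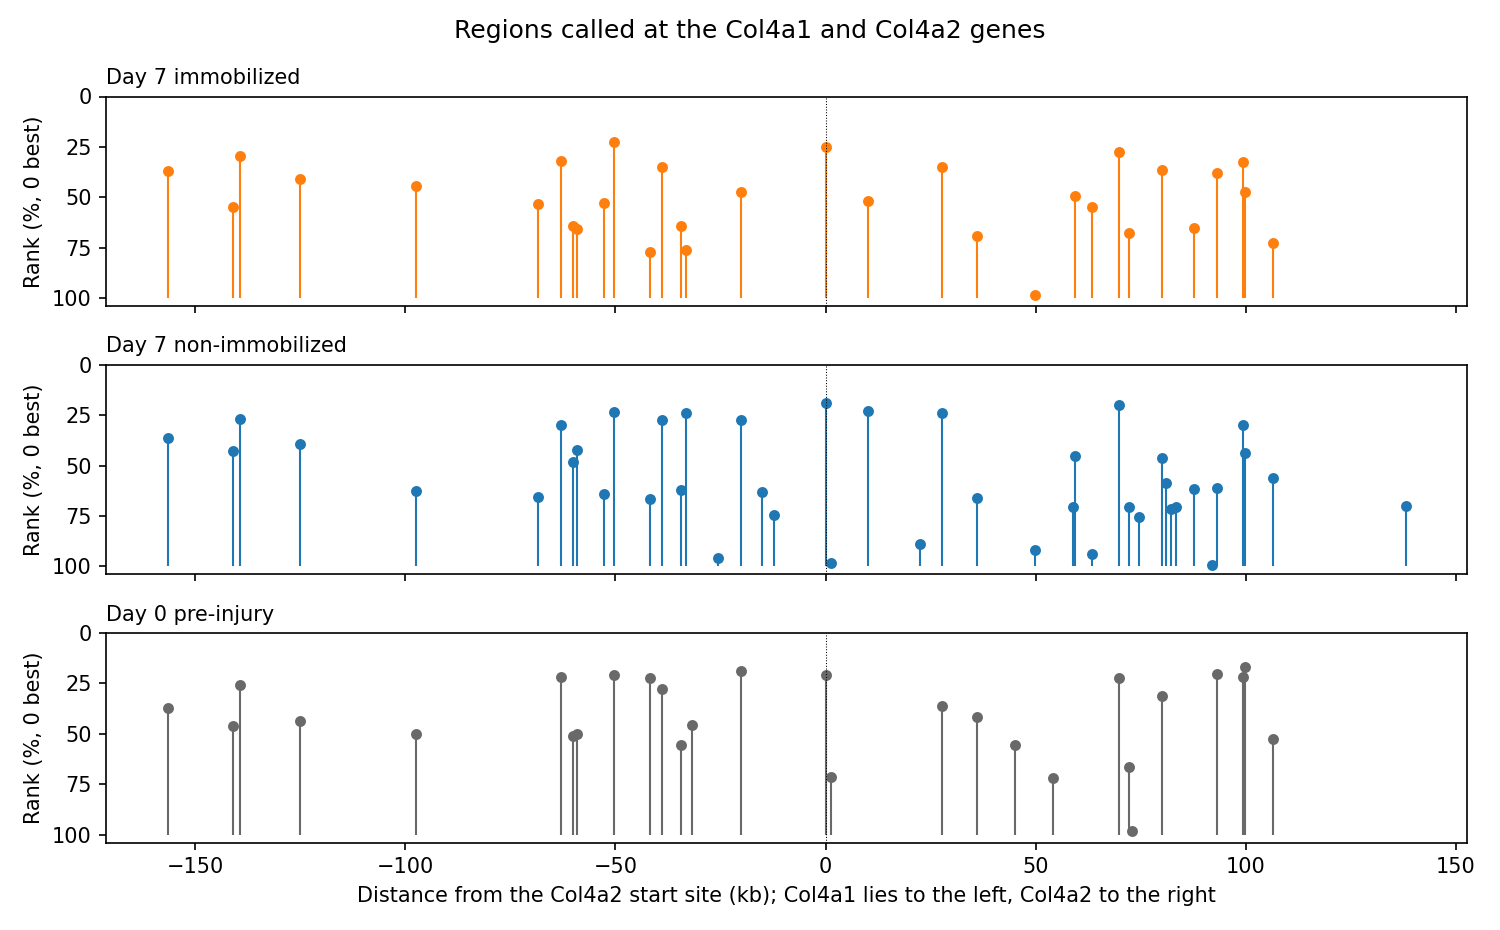
Rank of the best summit in each region of the Col4a1 and Col4a2 locus, by distance from the Col4a2 start (kb), for the 3 libraries, with better ranks towards 0%. Regions without a point for a library were not in its equal-length list: 31 are drawn for immobilized cells, 43 for non-immobilized cells and 28 for day 0.

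The other basement membrane genes had their own numbers. Col4a3 and Col4a4, chains of the kidney glomerulus and a few other membranes, had 4 regions as a locus in immobilized cells, 4 in non-immobilized cells and 6 at day 0. The multiplexin genes had nearly equal numbers in the 3 libraries, 13, 15 and 15 for Col15a1 and 15, 14 and 14 for Col18a1, the source of the fragment endostatin. Their regions were not the same ones, since of 23 Col15a1 regions 7 were in all 3 libraries, and of 22 Col18a1 regions 8 were. Both start summits ranked better at day 7: Col15a1 at 26.3% in immobilized cells, 26.2% in non-immobilized cells and 41.6% at day 0, and Col18a1 at 24.7%, 22.9% and 34.5%.

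The remaining 23 genes had 98 regions in immobilized cells, 101 in non-immobilized cells and 112 at day 0, of 150. Among the beaded filament genes, Col6a3 (chr1:90766860-90844001), a long type VI chain, had 10 regions in immobilized cells, 16 in non-immobilized cells and 18 at day 0. Non-immobilized cells and day 0 shared 7 Col6a3 regions that were not called in immobilized cells, and of these 7 regions 5 had no summit in the deposited immobilized list. Ranks went the other way between the day 7 libraries: of the 9 regions they shared, 7 ranked better in immobilized cells. In the better 50% of each list, 3 regions were called in immobilized and not in non-immobilized cells, and 0 the reverse. The start summit ranked at 43.8% in immobilized cells, 47.8% in non-immobilized cells and 53.6% at day 0. A region 8.95 kb into the gene ranked at 22.9%, 24.3% and 79.5%, much better in both day 7 libraries than at day 0. Col6a1 had 7, 5 and 8 regions, and its start summit ranked at 45.4% and 41.3% in immobilized and non-immobilized cells, against 23.3% at day 0. The adjacent gene Col6a2 differed little, with 7, 8 and 7 regions and start ranks of 12.7%, 13.8% and 11.0%. Col6a5 had 5, 3 and 5 regions and Col6a6 had 6, 9 and 10.

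Among the fibril-associated genes, Col19a1 (chr1:24257683-24587922) had 8 regions in immobilized cells, 3 in non-immobilized cells and 6 at day 0. Its 5 regions missing from non-immobilized cells included the start, which ranked at 68.1% in immobilized cells and 55.6% at day 0. The non-immobilized list was used whole, so there was no longer list of that library in which to look for them. Col22a1, found at muscle and tendon junctions, had 3, 7 and 5 regions. Col14a1 had 5, 3 and 6, and all its shared regions ranked better at day 0: 4 of 4 with immobilized cells and 3 of 3 with non-immobilized cells. Col12a1, found along the fibrils of tendon and periosteum, had 4, 4 and 3. Col16a1 had 8 regions in each day 7 library and 5 at day 0. A region 10.6 kb before its start had the best rank of any collagen region in immobilized cells, 4.75%, with 14.6% in non-immobilized cells and 7.61% at day 0. Col9a2 had 1, 3 and 1 regions.

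Of the short-chain genes, Col8a1, known from the vessel wall and the cornea, had 8 regions in immobilized cells, 5 in non-immobilized cells and 4 at day 0, and Col8a2 had 4 in each. The transmembrane collagens had more regions at day 0. Col13a1 had 5, 6 and 10 regions, Col23a1 had 6, 5 and 8, and Col25a1 had 2, 2 and 4. Day 0 held the most for each of the 3 in these equal-length lists. By summits of the deposited lists, the same regions numbered 7, 8 and 2 in immobilized cells and 10, 8 and 4 at day 0. Col23a1 was thus level there. The anchoring fibril gene Col7a1 had 1, 1 and 0 regions, and its start summit was in immobilized cells alone, at a rank of 88.2%. That library is the one with the most regions at keratinocyte markers, and the part of keratinocytes was not tested. Col26a1 had 8, 6 and 8 regions. Col28a1 had 3 regions in non-immobilized cells and 0 in the other libraries, although 2 of the 3 had a summit in the deposited immobilized list.

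Between immobilized and non-immobilized cells, 41 collagen regions were called in immobilized cells alone, 63 in non-immobilized cells alone and 175 in both. Over the regions of all genes, 19.0% of 50962 were called in immobilized cells alone and 17.9% in non-immobilized cells alone. The share of one-library regions that belonged to immobilized cells was thus 39.4% for collagens (30.0% to 49.5%) and 51.5% for all genes. For basement membrane collagens it was 24.0% (9.36% to 45.1%), from 6 and 19 regions, and for type IV genes 0%, from 0 and 12 regions (0% to 26.5%). For fibrillar collagens it was 37.5% (18.8% to 59.4%) and for the others 47.3% (33.7% to 61.2%). The type IV share was 36.4%, from 4 and 7 regions, with lists as deposited, 28.6%, from 2 and 5, in the better 50% of each list and 10.5%, from 2 and 17, with windows of 100 bp on each side. A gene was said to lean to a library if it had at least 3 regions in the pair, a difference of at least 2 regions and 1.5 times as many there. Of 30 collagen genes with enough regions, 4 (13.3%) leaned to immobilized cells, against 12.8% of all genes, and 6 (20.0%) to non-immobilized cells, against 10.2%. The 4 were Col19a1, Col8a1, Col14a1 and Col6a5, and the 6 were Col4a2, Col6a3, Col22a1, Col28a1, Col6a6 and Col9a2. Of the 39 collagen genes, 13 (33.3%) had at least 10 regions over the 3 libraries. Among all genes with at least 10 regions in the pair, 8.23% leaned to immobilized and 8.03% to non-immobilized cells. That set is not matched to the 30 collagen genes, most of which had fewer regions. With lists as deposited, that of immobilized cells being the longest, the share of immobilized cells became 74.3% for collagens and 80.6% for all genes. In the better 50% of each list it was 55.3% for collagens and 49.4% for all genes, so the collagen share lay below that of all genes in 7 of 9 settings and above it in 2.

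Between immobilized cells and day 0, 54 collagen regions were called in immobilized cells alone, 86 at day 0 alone and 162 in both. Over all genes 22.1% of 52461 regions were called in immobilized cells alone and 20.2% at day 0 alone. The share of immobilized cells was 38.6% for collagens (30.5% to 47.2%) and 52.1% for all genes. Among the 3 classes it was lowest in fibrillar collagens, 25.0% from 9 and 27 regions (12.1% to 42.2%), and it was even in basement membrane collagens, from 19 and 19 regions, and 39.4% in other collagens. In beaded filament genes it was 24.0% (9.36% to 45.1%), from 6 and 19 regions. Of 31 collagen genes, 2 (6.45%) leaned to immobilized cells, Col8a1 and Col16a1, against 17.0% of all genes. To day 0 leaned 8 (25.8%), against 13.3% of all genes, namely Col6a3, Col5a2, Col13a1, Col6a6, Col4a3, Col4a4, Col22a1 and Col25a1. Of these, Col4a3 and Col4a4 share regions. Among all genes with at least 10 regions, a set not matched to the collagen genes counted, 12.1% leaned to immobilized cells and 12.9% to day 0. As deposited, the lists gave a share of 61.6% for collagens and 72.2% for all genes, so the collagen share crossed an even split here too.

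Non-immobilized cells were set against the same day 0 library, so the day 0 comparisons are not independent. Here 65 collagen regions were called in non-immobilized cells alone, 75 at day 0 alone and 173 in both, and over all genes 21.4% of 51990 regions and 20.6%, in that order, were called in 1 library alone. The share of non-immobilized cells was 46.4% for collagens (38.0% to 55.0%) and 50.9% for all genes. The classes stood on either side of it: 33.3% for fibrillar collagens (18.6% to 51.0%), from 12 and 24 regions, 63.3% for basement membrane collagens (48.3% to 76.6%), from 31 and 18 regions, and 40.0% for the others. Type IV genes had 76.0% (54.9% to 90.6%), from 19 and 6 regions, but an even share, from 5 and 5, in the better 50% of each list, where all genes had 51.2%. Transmembrane genes had 20.0% (4.33% to 48.1%), from 3 and 12. Of 33 collagen genes, 4 (12.1%) leaned to non-immobilized cells, against 14.9% of all genes, and 10 (30.3%) to day 0, against 13.9%. The 4 were Col4a2, Col16a1, Col28a1 and Col9a2, and the 10 were Col5a2, Col13a1, Col19a1, Col14a1, Col6a1, Col6a5, Col23a1, Col25a1, Col4a3 and Col4a4. Among all genes with at least 10 regions, again not a matched set, 13.4% leaned to non-immobilized cells and 11.6% to day 0. Among the better 50% of each list, Col4a2 had 1 region fewer in non-immobilized cells than at day 0, so its excess lay in the weaker summits.

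**Figure D3:**
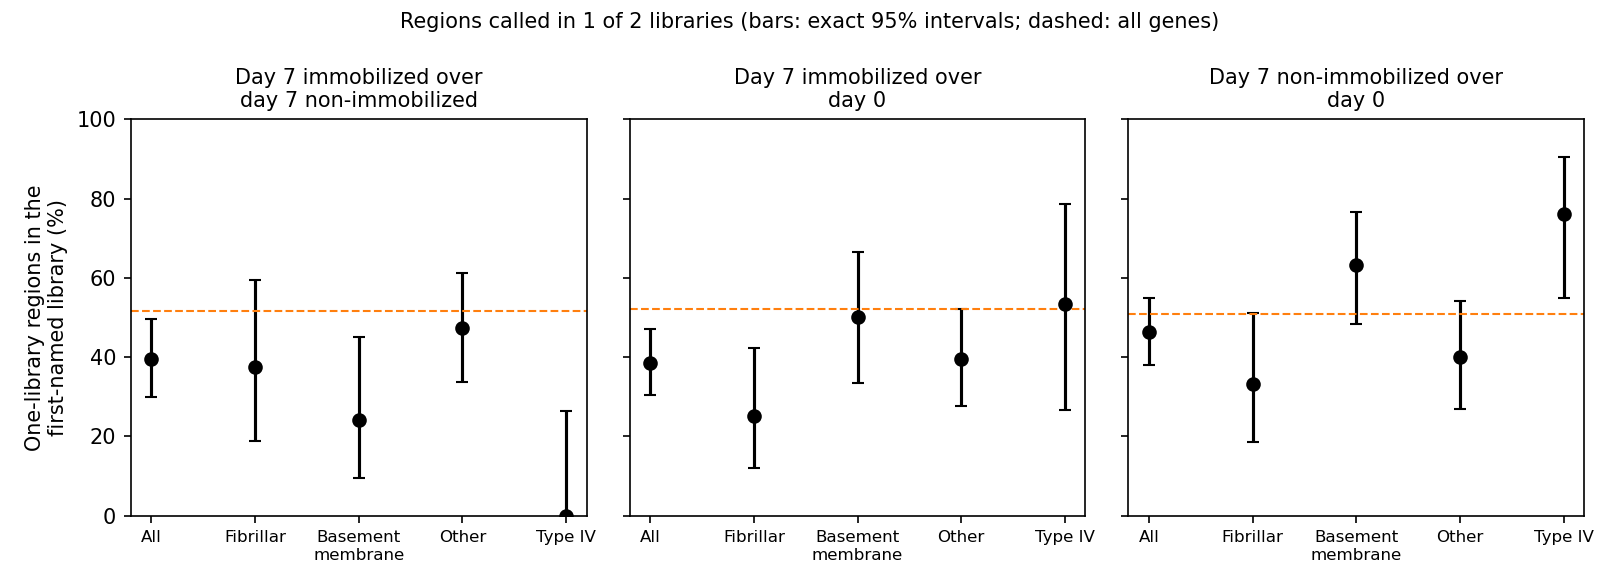
Share of one-library regions that belonged to the library named first (percent), by collagen class and pair of libraries, with exact 95% binomial intervals that cover counting error only and the share over all genes as a dashed line. Type IV genes stand at 0% for immobilized over non-immobilized cells and at 76.0% for non-immobilized cells over day 0, and fibrillar genes lie below all genes in each pair.

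Regions present in both libraries of a pair allow the ranks themselves to be compared. Of the 162 collagen regions shared by immobilized cells and day 0, 112 ranked better at day 0 (69.1%, 61.4% to 76.1%), against 53.0% of the regions of all genes. Of the 173 shared by non-immobilized cells and day 0, 113 did (65.3%, 57.7% to 72.4%), against 52.4%. Leaving out regions within 1 kb of a gene end gave 70.6% of collagen regions and 55.6% of all in the pair with immobilized cells, and 67.3% and 55.5% in the pair with non-immobilized cells. In fibrillar genes 34 of 46 shared regions (73.9%, 58.9% to 85.7%) ranked better at day 0 than in immobilized cells, with median ranks of 44.0% in immobilized cells and 32.7% at day 0. For non-immobilized cells the numbers were 36 of 49 (73.5%, 58.9% to 85.1%), with medians of 43.1% and 34.7% at day 0. Basement membrane genes had 33 of 44 (75.0%) in the pair with immobilized cells and 26 of 45 (57.8%) in the pair with non-immobilized cells. Between the day 7 libraries, 82 of 175 collagen regions (46.9%) ranked better in non-immobilized cells, against 51.4% for all genes, and 47.4% against 51.2% away from gene ends. The 23 other genes ranked better in immobilized than in non-immobilized cells in 50 of 72 shared regions (69.4%), against 48.6% for all genes, and basement membrane genes in 21 of 57 (36.8%). Neighbouring regions of 1 gene are not independent, so the intervals are too narrow to that extent.

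**Figure D4:**
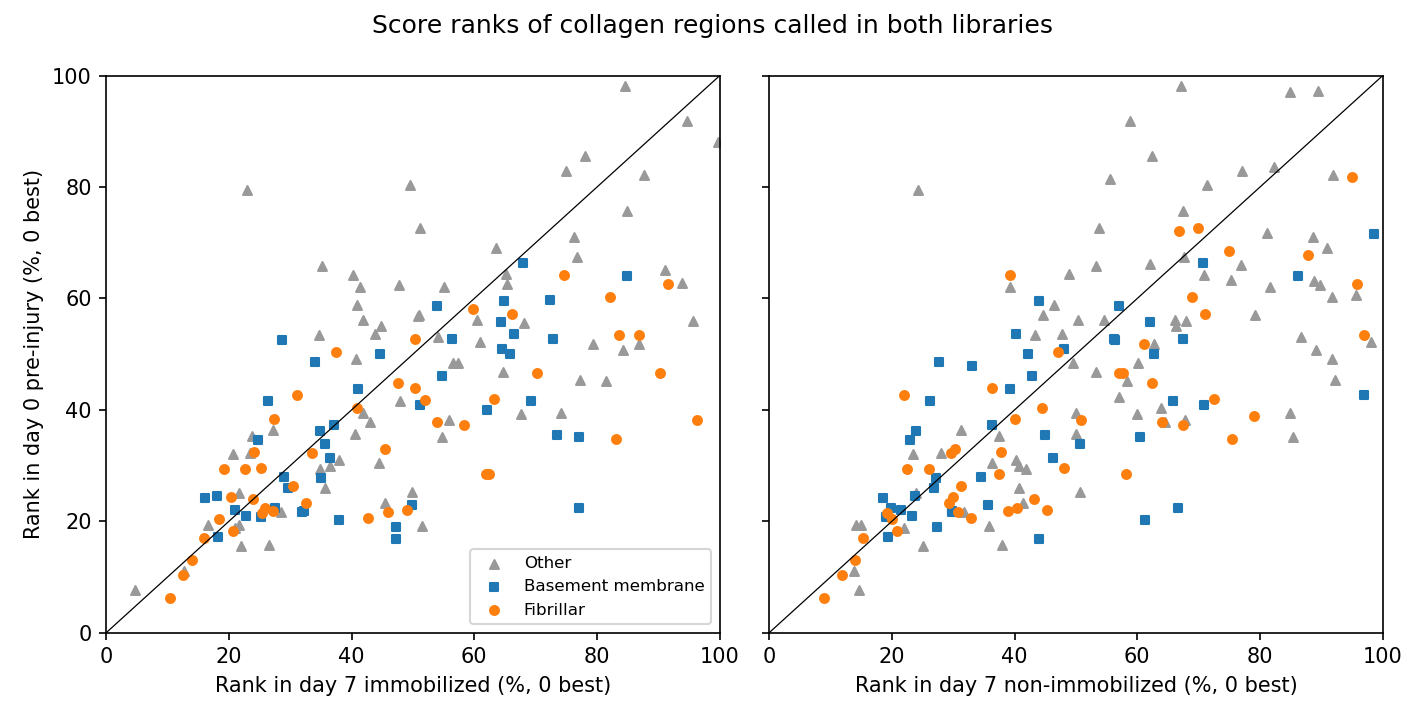
Rank of each collagen region shared by a pair of libraries, with better ranks towards 0%, by class, and the diagonal of equal rank. In the pairs with day 0, 112 of 162 regions shared with immobilized cells and 113 of 173 shared with non-immobilized cells have the better rank at day 0.

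Start sites were open at most collagen genes. Of the 31 genes with a RefSeq start, 22 (71.0%) had a summit within 500 bp of it in immobilized cells, against 58.4% of 16457 genes, 22 (71.0%) in non-immobilized cells, against 58.7%, and 23 (74.2%) at day 0, against 57.4%. In 20 genes the start had a summit in all 3 libraries, and in 7 it had one in none: Col9a1, Col9a2, Col10a1, Col11a2, Col13a1, Col20a1 and Col28a1. The other 4 starts were Col3a1 and Col6a6, absent from the equal-length list of immobilized cells, Col7a1, present there alone, and Col19a1, absent from non-immobilized cells. The start regions of Col3a1 and Col6a6 both had a summit in the longer deposited list of immobilized cells. That of Col6a6 was weak elsewhere, at 95.7% in non-immobilized cells and 60.7% at day 0. Collagen starts with a summit ranked lower than those of other genes: the median rank of a start with a summit was 38.7% in immobilized cells, 33.3% in non-immobilized cells and 34.5% at day 0, against 12.4%, 12.4% and 12.2% over all genes.

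**Figure D5:**
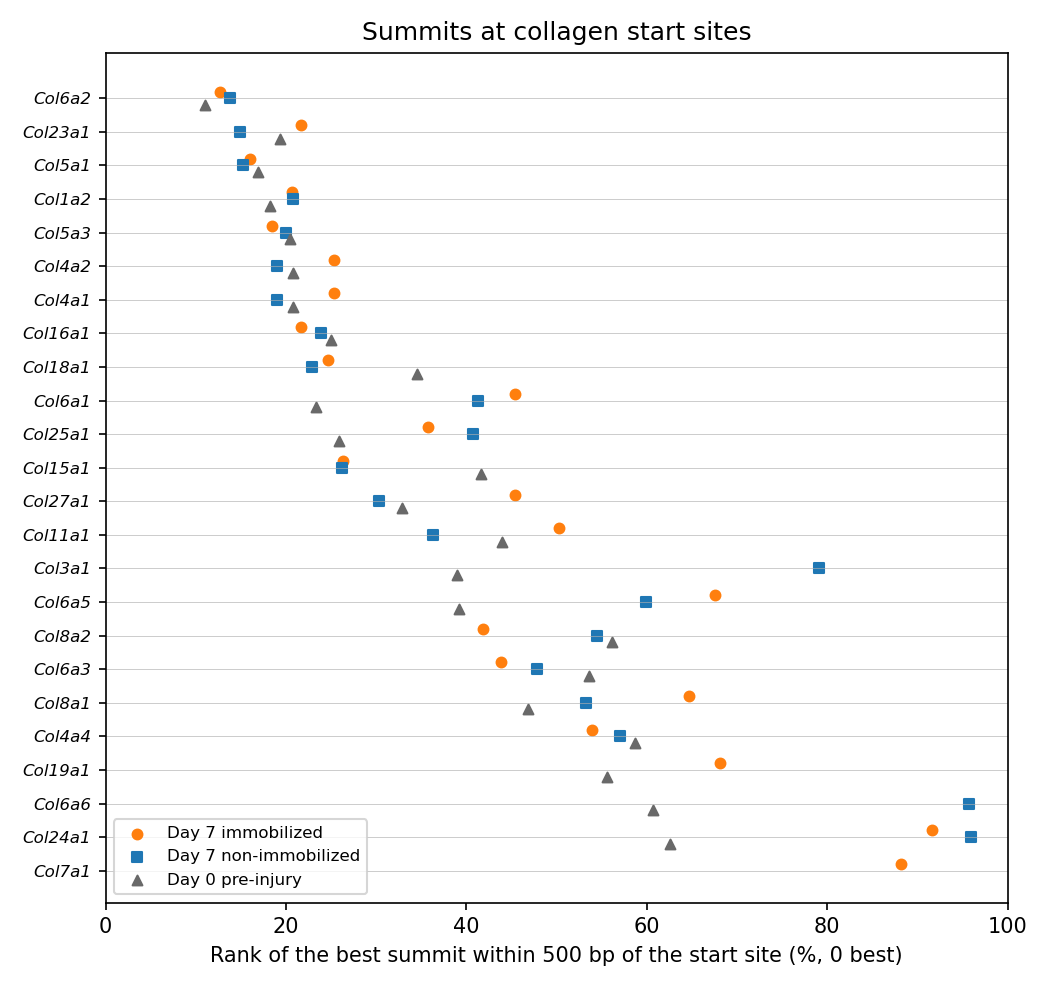
Rank of the best summit within 500 bp of the RefSeq start of each collagen gene (horizontal axis, percent, 0% the best) in the 3 libraries, for the 24 genes with such a summit in at least 1 library. The 3 symbols lie close together for Col6a2, Col5a1 and Col1a2, while Col3a1 and Col6a1 have their best rank at day 0 and Col15a1 and Col18a1 at day 7.

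The enzymes and chaperones of collagen synthesis were counted by the same rule. Of 38 such genes, 25 had enough regions to compare immobilized with non-immobilized cells, and 3 (12.0%) leaned to immobilized and 1 (4.0%) to non-immobilized cells, against 12.8% and 10.2% of all genes. P3h2, a prolyl 3-hydroxylase, had 16 regions in immobilized cells, 8 in non-immobilized cells and 11 at day 0. The gene that leaned to non-immobilized cells was P4ha3, with 2, 4 and 0 regions in the same order. The share of one-library regions in immobilized cells was 57.9% for synthesis genes (44.1% to 70.9%), from 33 and 24 regions, against 51.5% for all genes. Against day 0, 4 of 25 genes (16.0%) leaned to immobilized cells and 2 (8.0%) to day 0, where 17.0% and 13.3% of all genes did. In the other pair 4 of 24 (16.7%) leaned to non-immobilized cells and 2 (8.33%) to day 0, where 14.9% and 13.9% of all genes did. Serpinh1, the collagen chaperone Hsp47, had 6, 6 and 3 regions, and Lox, the oxidase that starts cross-linking, had 4, 3 and 1. Furin, a protease that activates precursor proteins, had 4, 5 and 1. Each of the 3 thus had more regions in both day 7 libraries, whereas Loxl1, a relative of Lox, had 8, 9 and 12 and Colgalt2, which adds galactose to hydroxylysine, had 6, 7 and 10. Start summits of these genes had median ranks of 17.7% in immobilized cells, 17.5% in non-immobilized cells and 17.4% at day 0, better than the medians of collagen starts. Whether these genes differ from the collagen genes was not tested.

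Regions at the 50 kb limit were few. Just inside it, and in no collagen gene, lay 3 Col1a2 regions at 47.7, 48.5 and 49.3 kb, 1 of Col6a3 at 47.7 kb and 1 of Col13a1 at 45.2 kb. Inside the paired gene, Col4a1 had regions at 45.1 and 49.7 kb and Col4a4 at 47.6 and 49.5 kb. The Col4a4 region at 49.5 kb was 1 of the 2 called at day 0 alone, so that gene's lean to day 0 depends on the limit. Just outside the limit lay 1 of Col5a1 at 50.2 kb, 2 of Col25a1 at 51.6 and 52.4 kb and 1 of Col4a1 at 52.9 kb.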

How the data were processed

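The labels give 3 mouse ATAC-seq libraries made with the Omni-ATAC protocol, 1 per group. The build was mm10, and the tools in the submitters' processing notes were MACS2 2.1.2, Bowtie2 2.3.4.1, edgeR 3.26.5, SAMtools 1.2 and bedtools 2.28.0, beside cutadapt, Picard, Trim Galore and FastQC with no version. Read filters, a shift for the transposase and the peak threshold were not given in the sources used here. Each deposited list holds 1 bp summits, called per library, and a score taken as −log10 of a p-value or a q-value, without word on which. Scores served to rank the summits of 1 list and nothing else. Per the file headers, the run statistics give reads as counts, duplication as a fraction and alignment as a percent: 92.5%, 89.9% and 90.9% of reads aligned in immobilized cells, non-immobilized cells and at day 0. Aligned pairs without duplicates are an upper estimate, the product of these values.

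Lists were reduced to 47912 summits, which left out 28.9% of the immobilized list, 7.37% of the day 0 list and none of the non-immobilized list. The lowest score used was 6.61 in immobilized cells, 1.33 in non-immobilized cells and 4.00 at day 0. Summits were widened by 250 bp on each side and merged. Gene coordinates, strands and promoters came from RefSeq tables of GRCm38.p6, the assembly of mm10, and positions count from 1. The members, gene lists and measures were chosen with earlier results of these data known. Genes were named by a rule: per pair and direction up to 5 collagens (4 synthesis genes) with the largest difference of one-library regions over the square root of their sum, and a set of 15 main collagens. All 39 collagens were also counted, so the remaining names fall outside the rule. Of the synthesis genes, Pcolce2, Tmem38b, Bmp1, P4ha2, Plod2, P3h1 and Adamts14 met the rule too and are not described, so those shown are a part of its output. On simulated data, with sites spaced so that windows could not merge and shifts smaller than a window, 100% of 4982 regions returned their pattern and gene. This checks the code and not the splitting of closely spaced summits. Alternatives were list length, the better 50% of each list, window width, distance and gene assignment. Work was done with scipy 1.17.1, pandas 2.3.3 and numpy 2.4.6 under Python 3.11.15, and figures with matplotlib 3.10.9.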

Additional observations from a re-analysis of the deposited data

How the results depend on the processing

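Each result below is the share, in percent, of one-library regions in the first library, unless a count is named. With lists as deposited, immobilized over non-immobilized cells gave 74.3 for all collagens, 76.5 for fibrillar, 66.7 for basement membrane and 76.3 for other collagens (all genes 80.6), and immobilized cells over day 0 gave 61.6, 47.4, 70.5 and 63.6 (all genes 72.2). In the better 50% of each list, immobilized over non-immobilized cells gave 55.3 for all and 72 for other collagens (all genes 49.4), with 3 leaning genes in place of 10. Immobilized cells over day 0 then gave 56.7 for other collagens (all genes 50.8) and 3 leaning genes in place of 10, and non-immobilized cells over day 0 gave 35.6 for all and 14.3 for fibrillar collagens (all genes 51.2) and 5 leaning genes in place of 14. Region differences there were 3 for Col6a3 between the day 7 libraries (-6 before), and -1 for Col4a2 (13 before) and 1 for Col6a1 (-3 before) between non-immobilized cells and day 0. Leaning genes numbered 5 between the day 7 libraries with 500 bp windows and 6 by nearest gene end, and 9 between non-immobilized cells and day 0 by nearest gene end or with summits inside genes alone. An alternative chosen after seeing the data took regions in the better 50% of 1 list and absent from the other deposited list. It gave 66.7, 50 and 75.0 for all, basement membrane and other collagens between the day 7 libraries (all genes 65.0), from only 4 and 2, 1 and 1, and 3 and 1 regions, where fibrillar genes had no such region, and 64.3, 50, 75.0 and 62.5 for all, fibrillar, basement membrane and other collagens in immobilized cells over day 0 (all genes 72.4), from 9 and 5, 1 and 1, 3 and 1, and 5 and 3 regions. Fibrillar genes had 0%, from 0 and 2 regions, in non-immobilized cells over day 0 (all genes 61.4). The cause of these moves was not tested beyond the lengths of the lists. The other 88 shares and counts stayed within their interval or within 1.5 times, as did 450 of the region differences of named genes, while 72 moved and 3 reversed. Fibrillar shares lay below those of all genes in 9 of 9 settings in each pair with day 0, and in 8 of 8 between the day 7 libraries. The shares of all collagens lay below in 9 of 9 in each pair with day 0, and in 7 of 9 between the day 7 libraries. No paired analysis was possible because each group has 1 library and the labels carry no replicate numbers. For the same reason no replicate could be left out. Regions near the end of a list limit what these lists can show, since the lowest scores differ between libraries.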
